A study of Mus musculus with 4 samples.

Results

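Rab GTPases are small switches that mark the vesicles and endosomes of a cell and recruit the proteins that move, tether and fuse them. Synaptotagmin-like proteins (Sytl) bind Rab27 and dock secretory vesicles, VAMP proteins are the vesicle-side SNAREs of membrane fusion, sorting nexins (Snx) sort cargo on endosomes, and the MAL proteolipids serve apical transport and transcytosis. In the urothelium, the epithelium of bladder and ureter, superficial cells carry fusiform vesicles that deliver uroplakin plaques to the apical membrane, and Rab27b, Mal, Rab11a and Snx31 are known from that traffic. The genes described here were all those whose name in the array files is Rab, Sytl, Snx or Vamp followed by a number in the usual form, or is Mal or Mal2. They numbered 103 genes with 149 probes, among 24357 named genes, of which 18170 could be tested.

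Whole ureters were taken at E18.5, just before birth, from NMRI mice, and 4 mutant RNAs were each set against a control RNA on a 2-colour array. The conditional mutant (cKO) was Pax2-cre/+; Trp63(dN-flox/dN-flox), in which the ΔN form of p63, a transcription factor of basal epithelial cells, was to be removed; the control was Trp63(dN-flox/?), with the second allele not given and no cre listed. Both genotypes therefore carry a floxed allele, and the controls do not match the cre. Pax2-cre acts in the nephric duct lineage, which gives the ureter epithelium, and the labels do not say in which share of the cells it acted. Array 2 held a male pair and arrays 1, 3 and 4 female pairs; the dyes were swapped, with the mutant in the red channel of arrays 1 and 3 only. The labels do not say whether an RNA came from 1 embryo or several, and the p-values cover only how these 4 arrays vary, which may be technical.

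All 4 arrays lay on 1 slide. Array 1 stood apart in its background, where 90.0% of green and 82.6% of red spots rose well over it; elsewhere the green share was 75.0% to 76.5% and the red share 72.4% to 72.9%. Trp63 itself had log2 ratios of cKO over control between -2.86 and -1.68, though its probe need not lie in the deleted part. Markers of the ureter were present: 13 of 13 superficial urothelial, 12 of 12 smooth muscle and 10 of 10 mesenchymal markers could be tested. So could 12 of 12 hepatocyte markers, whose median ratios by array were 2.23, 2.55, 1.31 and 0.47. Basal urothelial markers fell in 9 of 10 tested cases.

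Most vesicle trafficking genes showed little difference between cKO and control ureters, and those that changed were few. Of the 103 genes, 102 could be tested; Rab44 was well above background on 1 array in the control and on none in the cKO. By limma with an adjusted p threshold of 0.05, Rab17, Rab3b and Rab6b were higher in the cKO and Sytl1, Sytl3, Sytl5 and Rab38 were lower, 7 genes in all. Over all genes tested 8.52% passed, 2.91% higher and 5.61% lower, so 7 of 102, or 6.86%, is near that background. The median ratio of the 102 genes was 0.01 ± 0.04 (SD of the 4 per-array medians), beside 0.00 over all genes. Ratios were under 0.25 in size for 86 of the 102 genes, against 85.1% of all genes. At an unadjusted p under 0.05, 18 of the 102 were higher, a larger share than the 10.8% of all genes. Lower were 15, where all genes gave 12.8%. Ratios lay above 0 on all 4 arrays for 25 of the 102, a larger share than the 14.2% of all genes. They lay below 0 for 18, where all genes gave 16.3%. The differences between these shares were not tested. In a limma fit of the separate channels with the array as a replicate block, 11 were higher and 13 lower, where 6.82% and 9.53% of all genes were. Without the block 0 were higher (9 at an unadjusted p under 0.05) and 2 lower, where 0.66% and 2.41% of all genes were.

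**Figure D1:**
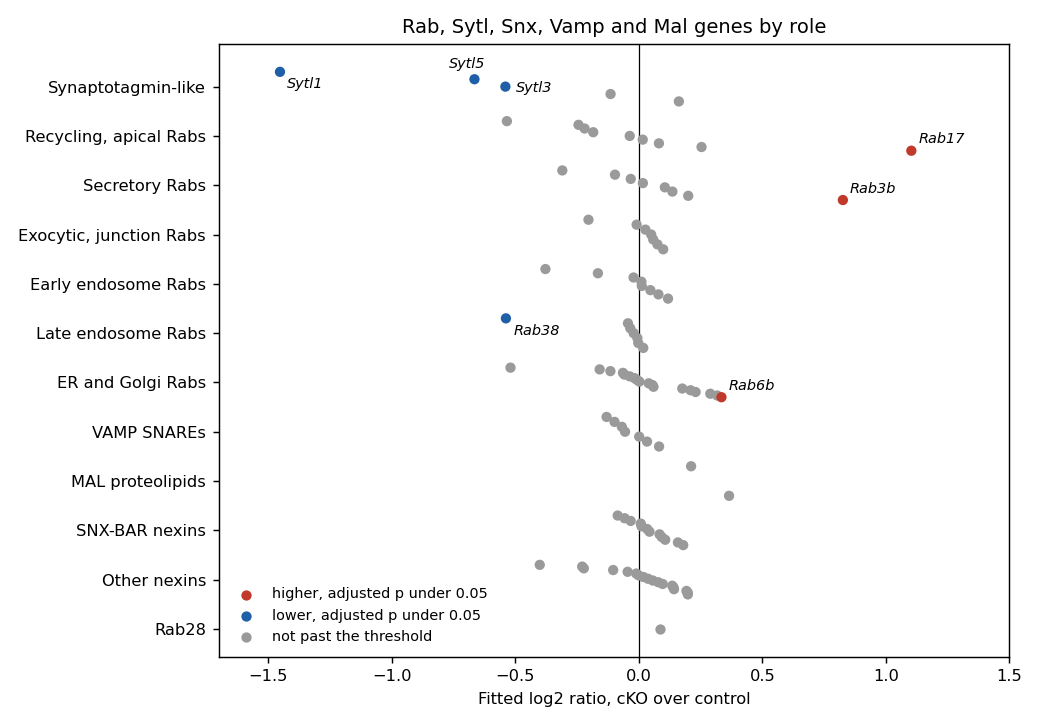
Fitted log2 ratio of cKO over control (horizontal axis) for the 102 tested genes, in rows by role, with Rab28 in a row of its own; colours mark genes past an adjusted p of 0.05. Sytl1 at -1.45 and Rab17 at 1.10 lie farthest from 0, while VAMP and sorting nexin genes lie close to it.

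The sequences before the start sites are shown for the 3 synaptotagmin-like genes that fell and for Rab17, which rose most, since ΔNp63 is a DNA-binding protein. They are the 250 bases before the RefSeq start (GRCm38.p6, 5′ to 3′ on the gene's strand): Sytl1 at chr4:133263088-133263337 (minus strand), Sytl5 at chrX:9885371-9885620 (plus), Sytl3 at chr17:6658809-6659058 (plus) and Rab17 at chr1:90967668-90967917 (minus). Capitals mark a p53 family core, written here as CNNG, 6 further bases and CNNG, which reads the same on both strands.
Sytl1: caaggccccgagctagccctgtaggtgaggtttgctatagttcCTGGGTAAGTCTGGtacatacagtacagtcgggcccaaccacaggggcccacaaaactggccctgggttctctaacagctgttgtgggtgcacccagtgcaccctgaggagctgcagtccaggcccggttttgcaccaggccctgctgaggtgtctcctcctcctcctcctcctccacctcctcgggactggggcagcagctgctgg
Sytl5: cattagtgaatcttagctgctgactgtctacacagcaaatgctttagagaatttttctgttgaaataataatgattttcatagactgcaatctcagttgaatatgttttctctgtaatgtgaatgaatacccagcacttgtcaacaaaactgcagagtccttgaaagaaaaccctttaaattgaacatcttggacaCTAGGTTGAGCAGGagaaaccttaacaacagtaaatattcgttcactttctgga
Sytl3: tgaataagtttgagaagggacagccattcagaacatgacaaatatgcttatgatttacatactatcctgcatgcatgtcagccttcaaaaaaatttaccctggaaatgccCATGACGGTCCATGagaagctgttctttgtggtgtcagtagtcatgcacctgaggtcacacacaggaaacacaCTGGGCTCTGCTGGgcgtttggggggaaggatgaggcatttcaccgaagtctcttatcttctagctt
Rab17: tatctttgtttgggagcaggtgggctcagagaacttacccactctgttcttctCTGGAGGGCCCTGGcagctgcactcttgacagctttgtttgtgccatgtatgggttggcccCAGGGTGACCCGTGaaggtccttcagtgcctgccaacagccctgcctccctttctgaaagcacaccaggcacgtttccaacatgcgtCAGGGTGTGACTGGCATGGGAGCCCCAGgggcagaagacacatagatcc

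The core occurred 1 time before Sytl1, 1 time before Sytl5, 2 times before Sytl3 and 4 times before Rab17, where the pair nearest the start site lie end to end. Such a core is common: 63.5% of 32851 windows of this length held at least 1. Of the 96 windows of the 78 genes described here that had an entry, 81 held at least 1, or 84.4%. A narrower form with CATG as a CNNG part, on either strand, was in 9.19% of all windows. Of those 96 windows 6 held it (6.25%), including those of Sytl3 and Rab17. AACCNGTT, the grainyhead motif, was in 0.928% of all windows and in none of these 4 windows. Before Rab3b, which also rose, there was no match to the core and a TATAAA on either strand, a motif that 12.4% of windows held; Rab6b had 3 core matches. Rab38 had no entry. A match is a description of the letters and not a site of binding.

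Among the synaptotagmin-like proteins, 3 of 5 fell and 2 did not pass. Sytl1, an effector of Rab27 in vesicle exocytosis, fell 2.74-fold and had the lowest ratio of all 102 genes. Its log2 intensities were 12.93, 13.24, 13.17 and 13.17 in controls 1 to 4 and 11.16, 12.09, 11.72 and 11.72 in the cKO of the same arrays. Every control lay above every cKO sample. The log2 ratios were -1.76, -1.14, -1.45 and -1.45 on arrays 1 to 4, with a mean of -1.45 ± 0.25 (SD, n = 4; limma adjusted p = 0.00126). Its probe lies on chromosome 4, 132809016 to 132809075 (mm9). A second Sytl1 probe, at 132811975 to 132812034, gave -0.84 ± 0.13 (limma adjusted p over probes 0.00262), a smaller fall in the same direction. The Sytl1 call stood under all 14 alternatives.

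Sytl5, another Rab27 effector, fell 1.59-fold (-0.67 ± 0.28; limma adjusted p = 0.0283). Control levels were 9.06, 9.30, 9.21 and 9.14, and cKO levels 8.05, 8.85, 8.77 and 8.38. The groups did not overlap, and the cKO of array 1 was lowest. The call ended without array 1 (adjusted p = 0.0654) or array 4 (0.102). It also ended with the deposited value table (0.102), Agilent's processed signals (0.0501) or, in the separate-channel fit, no replicate block (0.136). Its probe lies on chromosome X, 9570163 to 9570222 (mm9).

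Sytl3, also a Rab27-binding protein, fell 1.45-fold (-0.54 ± 0.08; limma adjusted p = 0.00777), with ratios of -0.65, -0.55, -0.45 and -0.51 on the 4 arrays. Within each array the cKO was the lower, while the levels of the groups overlapped across arrays: controls lay at 8.75, 9.31, 9.20 and 9.42 and cKO samples at 8.10, 8.76, 8.74 and 8.92. Its probe is on chromosome 17, 6942330 to 6942389 (mm9), and its dimmer probes at 6942110 to 6942169 and 6880588 to 6880647 had ratios of -0.25 ± 0.04 and -0.20 ± 0.06. Averaged over its probes Sytl3 had a ratio of -0.33. Its call ended only in the separate-channel fit with no replicate block (limma adjusted p = 0.365). Mast cell markers, of which 6 of 8 were tested and 3 fell, had medians of -0.70, -0.26, -0.37 and -0.42 on arrays 1 to 4. At an unadjusted p under 0.05 (limma) 4 were lower and 1 was higher, Kit at 0.22. Their summed intensities were 7448 to 10452 in controls and 5432 to 7515 in the cKO. Ms4a2 and Fcer1a could not be tested. The leukocyte list had a median of -0.06 with 0 of 11 past the threshold (limma; 1 lower and 0 higher at an unadjusted p under 0.05). The part of such cells in the Sytl3 value was not tested.

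Sytl2, which brings Rab27 vesicles to the apical membrane of epithelia, had ratios of -0.61, 0.38, 0.15 and -0.38 (-0.11 ± 0.46; 95% interval -0.55 to 0.32; limma adjusted p = 0.766). Its sign differed between arrays. Sytl4, the granuphilin of hormone granules, had a ratio of 0.16 ± 0.07 (limma adjusted p = 0.164).

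Of the 9 Rabs of recycling endosomes and apical transport, Rab17 rose and 8 did not pass. Rab17, a Rab of polarized epithelia that acts in transcytosis and apical recycling, rose 2.15-fold. Control levels were 7.90, 8.55, 8.67 and 8.52 and cKO levels 8.64, 9.86, 9.999 and 9.55, so that the cKO was higher on each array; the cKO of array 1 lay within the control range of the other arrays. The ratios were 0.75, 1.30, 1.33 and 1.03 (1.10 ± 0.27; limma adjusted p = 0.00617). Its probe lies on chromosome 1, 92854900 to 92854959 (mm9), and a second probe, between 92856682 and 92857724, gave 0.79 ± 0.26 (adjusted p over probes 0.0149). Leaving out any array kept the call, with ratios from 0.96 to 1.25. Only the separate-channel fit with no replicate block ended it (limma adjusted p = 0.170).

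Kidney tubule markers had a median of -0.05, with 2 of 9 tested members higher and 1 lower; their summed intensity was 4053 to 5634 in controls and 9384 to 11013 in the cKO, and Umod, Slc12a1, Slc12a3 and Calb1 could not be tested. The hepatocyte markers, 5 of 12 higher, had summed intensities of 37597 to 72481 in controls and 39447 to 296820 in the cKO. On arrays 1 to 4 the Rab17 ratios were 0.75, 1.30, 1.33 and 1.03. The hepatocyte medians were 2.23, 2.55, 1.31 and 0.47, and the kidney tubule medians -0.03, 0.34, -0.10 and -0.05. Adrenal cortex markers, 2 of 8 higher and 0 lower (limma), had medians of 0.57, 0.20, 0.32 and 0.24. Their summed intensities were 2353 to 2895 in controls and 2932 to 4802 in the cKO. The part of RNA from other tissues in the Rab17 value was not tested.

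**Figure D2:**
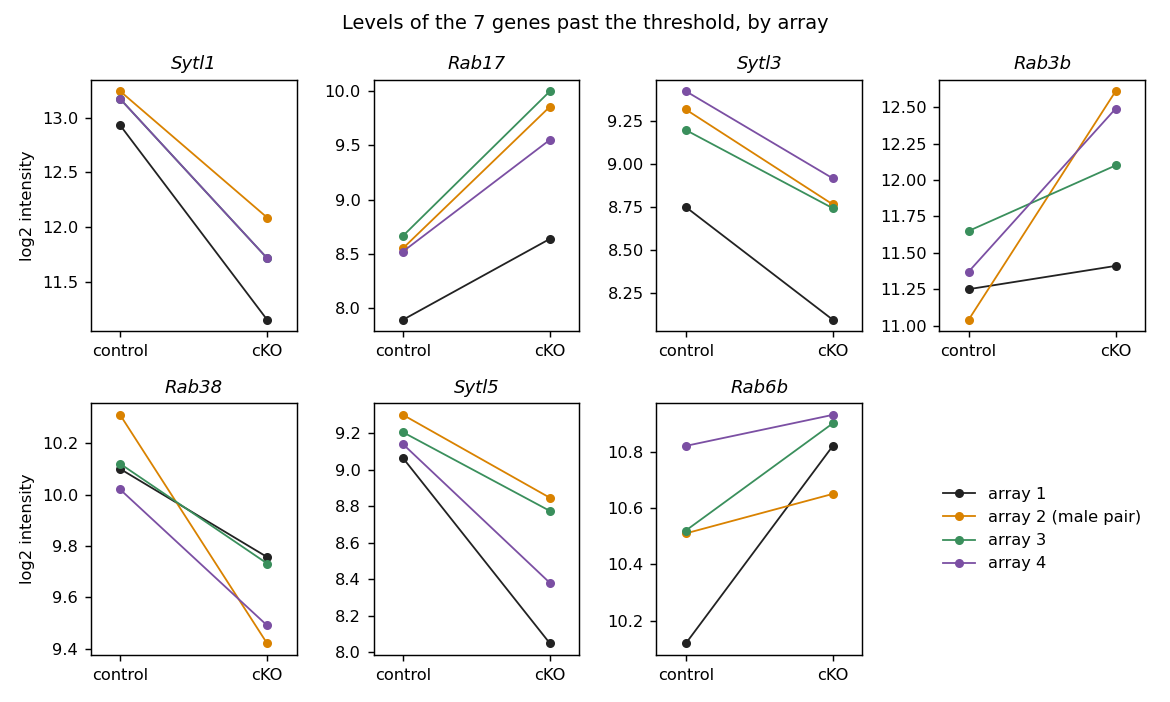
Normalized log2 intensity of the control and the cKO sample of each array (lines join the pair; vertical axes differ between genes) for the 7 genes past an adjusted p of 0.05. The lines of Sytl1, Sytl5 and Rab38 fall with no overlap between groups, and those of Rab3b differ most in slope, from 0.16 to 1.57.

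Rab25, the epithelial relative of Rab11, had control levels of 13.37, 13.52, 13.53 and 13.57 and cKO levels of 12.34, 13.32, 13.27 and 12.92. The groups did not overlap, and the ratio ran from -1.03 on array 1 to -0.20 on array 2. With a mean of -0.53 ± 0.38 it did not pass (95% interval -0.90 to -0.17; limma adjusted p = 0.0976, and 0.0437 without array 3). Rab11a, the marker of the apical recycling endosome, likewise had all cKO levels below all control levels (-0.24 ± 0.18; adjusted p = 0.134). Rab14, of endosome to Golgi traffic, also had groups that did not overlap (-0.18 ± 0.12; adjusted p = 0.135). The related Rab11b had a ratio of 0.02 ± 0.10, with a 95% interval of -0.14 to 0.17. Rab15 (-0.22 ± 0.26) and Rab4a, of rapid recycling (0.25 ± 0.12; adjusted p = 0.0915), did not pass, although a second Rab4a probe did, at 0.28 ± 0.08 (adjusted p over probes 0.0412).

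Among 102 genes, 9 had all cKO levels below all control levels and 2 had them above, Snx25 and Rab40b. Over all genes these shares were 6.19% and 3.65%. Besides Sytl1, Sytl5 and Rab38, the genes below were Rab10, Rab11a, Rab14, Rab19, Rab25 and Snx10.

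Of 8 Rabs of regulated secretion, Rab3b rose and 7 did not pass. Rab3b, a regulator of secretory vesicle exocytosis, rose 1.77-fold (0.83 ± 0.64; limma adjusted p = 0.00935), with a probe on chromosome 4 at 108613734 to 108613793 (mm9). Its control levels were 11.25, 11.04, 11.65 and 11.37 and its cKO levels 11.41, 12.61, 12.10 and 12.49. The ratios of 0.16, 1.57, 0.46 and 1.11 were high on the arrays with a green cKO and low on those with a red cKO, and highest in the male pair. The p-value rests on the spread within a dye orientation; with no dye term the ratio was the same and the adjusted p was 0.0629. The call also ended in the separate-channel fit with no replicate block (limma adjusted p = 0.093).

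Rab27b, the Rab of urothelial fusiform vesicles, had control levels of 15.60, 15.50, 15.41 and 15.60 and cKO levels of 14.96, 15.75, 15.55 and 15.46. It was lower in the cKO on arrays 1 and 4 and higher on arrays 2 and 3 (-0.10 ± 0.40; 95% interval -0.46 to 0.27; limma adjusted p = 0.763). A dimmer Rab27b probe had -0.98, -0.12, -0.27 and -0.71 (-0.52 ± 0.40; adjusted p over probes 0.112), lower in the cKO on each array, and the mean of both probes was -0.31. Rab27a, known from melanosomes and cytotoxic granules, had a ratio of -0.03 ± 0.13. Rab3d, of exocrine granules, came close to the threshold at -0.31 ± 0.13 (adjusted p = 0.0565), lower on each array. Rab3a, of synaptic vesicles, had a ratio of 0.20 ± 0.11. For Rab3c the brightest probe had a ratio of 0.02 ± 0.11, while a probe at chromosome 13, 110844454 to 110844513 (mm9), had 0.59 ± 0.19 (adjusted p over probes 0.0147). Rab3c and Rab4a were the 2 genes that did not pass while another probe of theirs did, among 37 genes with several passing probes; in none were probes past the threshold in opposite directions.

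Of the 7 Rabs of late endosomes and lysosome-related organelles, Rab38 fell and 6 did not pass. Rab38, which serves melanosome formation together with Rab32, fell 1.45-fold (-0.54 ± 0.25; limma adjusted p = 0.0152). Control levels of 10.10, 10.31, 10.12 and 10.02 all lay above cKO levels of 9.76, 9.42, 9.73 and 9.49. The male pair of array 2 had the lowest ratio, at -0.89. The call ended without array 1 (adjusted p = 0.0686) or array 3 (0.0680), and with the deposited value table (0.0517). Its probe is on chromosome 7, 95639879 to 95639938 (mm9); a probe that overlaps it, at 95639916 to 95639975, was not well above background on any array in either genotype.

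Melanocyte markers had a median of -0.01 over 4 tested of 7, none past the threshold (limma; 1 lower at an unadjusted p under 0.05), and Tyrp1, Dct and Slc45a2 could not be tested. Their summed intensities were 2663 to 3242 in controls and 2297 to 2946 in the cKO. Rab32 had a ratio of -0.03 ± 0.21. Rab7, the Rab of late endosomes, had a ratio of -0.00 ± 0.21, and Rab9, of transport from late endosomes to the Golgi, one of -0.01 ± 0.06 with a 95% interval of -0.13 to 0.12.

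Of 18 Rabs assigned to the endoplasmic reticulum and Golgi, Rab6b rose and 17 did not pass. Rab6b, the Golgi Rab enriched in neurons, rose 1.26-fold (0.33 ± 0.27; limma adjusted p = 0.0489), with ratios of 0.70, 0.14, 0.38 and 0.11. Control levels were 10.12, 10.51, 10.52 and 10.82 against cKO levels of 10.82, 10.65, 10.90 and 10.93; the groups overlapped, and the control of array 1 was lowest. The call ended under 10 of 14 alternatives: the loss of any array (0.0511 to 0.164), Agilent's processed signals (0.0788), the deposited value table (0.106), the median within arrays (0.0588), no filter (0.0569), no dye term (0.101) and no replicate block (0.338). Nerve and glia markers, 1 of 12 higher, had medians of 0.62, 0.17, 0.10 and -0.03 on the 4 arrays and summed intensities of 51258 to 55572 in controls and 53526 to 60089 in the cKO; their part in the Rab6b value was not tested. The neuronal Rab39b was at 0.32 ± 0.15 (adjusted p = 0.0617). Rab1a, of transport from the endoplasmic reticulum to the Golgi, had ratios of 0.00, 0.03, -0.00 and -0.06 (-0.01 ± 0.04; 95% interval -0.14 to 0.12). Rab19 had cKO levels of 9.86, 10.83, 10.74 and 10.50 below control levels of 10.88, 11.09, 11.01 and 11.02 (-0.52 ± 0.36; adjusted p = 0.0821).

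Early endosomal Rabs and the Rabs of exocytosis and junctions gave no call in 8 and 7 genes (limma; at an unadjusted p under 0.05, 1 of each was lower and 0 higher). Rab20, found on endosomes and phagosomes, was lowest of the former at -0.38 ± 0.18 (adjusted p = 0.0590), and Rab5c, of early endosome fusion, was at 0.01 ± 0.12. Rab10, which carries exocytic and basolateral cargo, had cKO levels of 14.81, 14.79, 14.82 and 14.81 below control levels of 14.91, 15.02, 15.05 and 15.05 (-0.20 ± 0.07; adjusted p = 0.0885). Rab8a, its relative in apical and ciliary transport, had a ratio of 0.08 ± 0.04 (95% interval -0.06 to 0.21). Rab13, of tight junction assembly, had ratios of 0.26, -0.20, 0.51 and -0.46, positive where the cKO was red and negative where it was green, and its other probe had 0.02, -0.03, 0.00 and 0.11. Such a sign that follows the dye on all 4 arrays was seen for 12 of 102 genes and for 11.3% of all genes.

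No VAMP gene passed, of 7 tested, and none did at an unadjusted p under 0.05 (limma). Vamp8, an endosomal and exocytic SNARE of secretory epithelia, had ratios of -0.29, 0.11, -0.03 and -0.06 (-0.07 ± 0.17; 95% interval -0.24 to 0.11). Vamp7, of lysosome exocytosis and apical transport, was lower on each array (-0.13 ± 0.11; limma adjusted p = 0.281). Vamp2, of synaptic and granule fusion, and Vamp3, of recycling endosomes, had ratios of 0.00 ± 0.12 and 0.08 ± 0.17.

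The MAL proteolipids did not pass. Mal, which carries cargo to the apical membrane, had ratios of -0.30, 0.47, 0.77 and -0.08 (0.21 ± 0.49; 95% interval -0.27 to 0.70). The spread between arrays exceeded the mean. Mal2, of transcytosis, had control levels of 14.36, 14.42, 14.30 and 14.44 and cKO levels of 14.21, 15.07, 14.86 and 14.84. It was higher in the cKO on arrays 2 to 4 and lower on array 1 (0.37 ± 0.36; limma adjusted p = 0.163), and passed without array 1 (0.54; adjusted p = 0.0492).

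No sorting nexin passed, of 30 tested; 6 were higher and 3 lower at an unadjusted p under 0.05 (limma), where all genes gave 10.8% and 12.8%. Their ratios lay between -0.40 and 0.20, and 29 of 30 were under 0.25 in size. The exception was Snx31, a sorting nexin of the urothelium that binds uroplakins, with control levels of 11.30, 11.39, 11.25 and 11.33 and cKO levels of 10.44, 11.35, 10.95 and 10.92. Its ratio was -0.40 ± 0.34 (95% interval -0.69 to -0.11; adjusted p = 0.111), from -0.86 on array 1 to -0.04 on array 2. Snx10, of endosomes and osteoclast function, had non-overlapping groups at -0.23 ± 0.09 (adjusted p = 0.0577), and Snx11 was at -0.22 ± 0.03 (adjusted p = 0.0602). Snx25 was at 0.19 ± 0.04 (adjusted p = 0.0914) with all cKO levels above all controls. Retromer-linked members lay near 0: Snx2 at 0.01 ± 0.17, Snx3 at 0.06 ± 0.11 and Snx27, an adaptor for receptors returned to the surface, at -0.10 ± 0.11.

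General epithelial markers, beside which the trafficking genes of epithelia can be read, differed between arrays. In their list 9 of 25 fell and 0 rose (limma; 15 lower and 0 higher at an unadjusted p under 0.05), with medians of -0.85, -0.06, -0.28 and -0.52 on arrays 1 to 4. Its summed intensity was 505506 to 535775 in controls and 305103 to 495743 in the cKO; each of its 25 markers could be tested. The superficial urothelial list had medians of -0.75, -0.03, -0.17 and -0.44, with 0 of 13 past the threshold and 7 lower at an unadjusted p under 0.05. Both lists hold Krt8, Krt18 and Elf3, so they are not separate sets. In such bulk RNA, fewer cells of a type and less RNA per cell cannot be told apart. The same order of arrays, from lowest on array 1 over arrays 4 and 3 to highest on array 2, was found for 11 of 102 genes, among them Sytl1, Sytl2, Rab25, Rab19, Rab27b, Rab11a, Rab15, Snx31 and Mal2. That is 10.8%, near the 7.83% of all genes, and Sytl1 has this order by a narrow margin (-1.451 on array 3 and -1.454 on array 4).

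**Figure D3:**
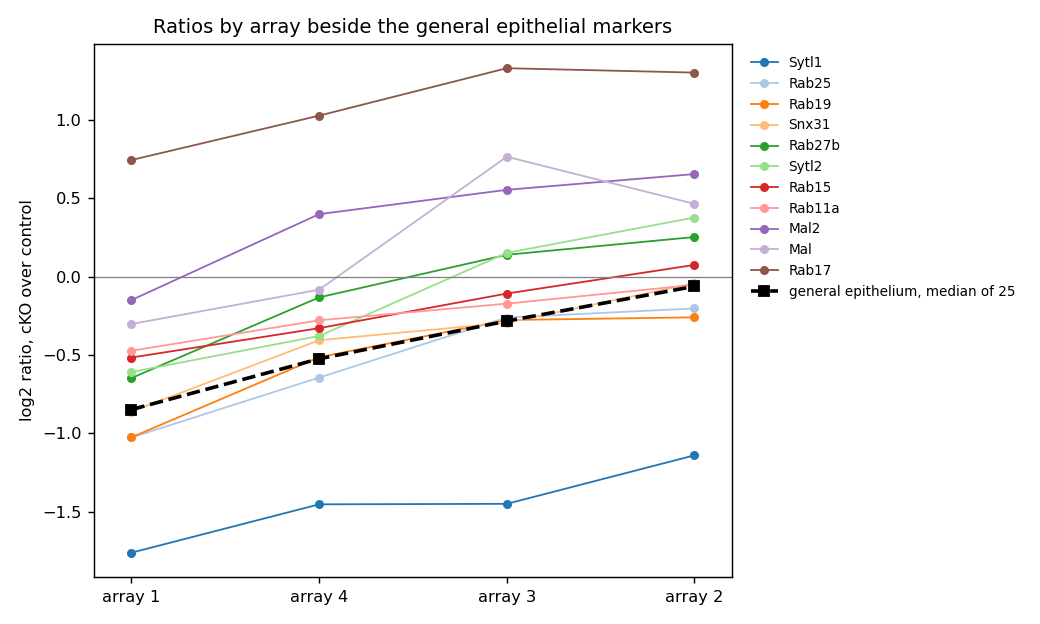
Log2 ratio of cKO over control on each array, ordered along the horizontal axis by the median of 25 general epithelial markers (dashed), for 11 genes chosen after their values were seen. Snx31, Rab19 and Rab25 lie close to the dashed line, Sytl1 lies below it and Mal2 and Rab17 above it on all 4 arrays.

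The ratios were also set against that median within each array. Snx31 differed from it by 0.03 ± 0.06 (SD, n = 4), Rab19 by -0.09 ± 0.11 and Rab25 by -0.10 ± 0.09, where their ratios to control had SDs of 0.34, 0.36 and 0.38. Sytl5 differed from it by -0.24 ± 0.11, where its ratio to control had an SD of 0.28. Among the genes set against that median, the spread was wider against it only for Sytl3, Rab38 and Rab20. The SD was 0.29 in place of 0.08 for Sytl3, 0.55 in place of 0.25 for Rab38 and 0.20 in place of 0.18 for Rab20. The mean differences of these genes from the median were -0.11, -0.11 and 0.05. Sytl1 differed from it by -0.91, -1.08, -1.17 and -0.93, a mean of -1.02 ± 0.12. Rab27b, by its brightest probe, lay above it at 0.33 ± 0.10, Sytl2 at 0.32 ± 0.15, Mal2 at 0.79 ± 0.11 and Rab17 at 1.53 ± 0.11. The dimmer Rab27b probe did not share this. Its ratios were -0.98, -0.12, -0.27 and -0.71, beside epithelial medians of -0.85, -0.06, -0.28 and -0.52. The 25 markers themselves had fitted ratios from -1.23 to 0.28, with a median of -0.46. The ± values cover the spread between arrays and not that between markers. The differences from the median describe genes picked after their values were seen, in part for sharing the array order. The part of the epithelial share in each ratio was not tested.

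Among partners of these proteins, 11 of 163 tested genes passed, 2 higher and 9 lower, or 6.75%, near the 8.52% of all genes. Dennd1c, an exchange factor for Rab35, fell 1.67-fold, with ratios of -0.54, -0.78, -0.92 and -0.70 (-0.74 ± 0.16; limma adjusted p = 0.00719), a call that held under all 14 alternatives. Stx19, a syntaxin of epithelial cells, fell 1.74-fold (-0.80 ± 0.21; adjusted p = 0.00898), with ratios of -0.93, -0.51, -0.76 and -0.98. The deposited value table gave -1.26 and an adjusted p of 0.0531. The separate-channel fit with no replicate block also ended the Stx19 call (limma adjusted p = 0.116). The GAP domain protein Tbc1d8 fell 1.395-fold (-0.48 ± 0.10; adjusted p = 0.00698), and leaving out any array kept its call. That call ended only with no replicate block (limma adjusted p = 0.215).

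The Rab11 effector Rab11fip5 fell 1.47-fold (-0.56 ± 0.19; limma adjusted p = 0.0207) and Micall2, a Rab13 effector of junctions, 1.26-fold (-0.33 ± 0.05; 0.0235). Dennd2c, an exchange factor for Rab9, fell 1.30-fold (-0.38 ± 0.11; 0.0161) and Rin1, one for Rab5, 1.29-fold (-0.37 ± 0.14; 0.0418). The tight junction protein Marveld3, also in the epithelial list, fell 1.61-fold (-0.69 ± 0.39; 0.0478). Rabgap1l fell 1.48-fold (-0.57 ± 0.34; 0.0461), but the mean of its probes was -0.04 (adjusted p = 0.785). Tbc1d4, the GAP that restrains Rab10 in glucose transporter traffic, rose 1.22-fold (0.28 ± 0.06; 0.0407) and the MARVEL protein Cmtm8 1.30-fold (0.38 ± 0.14; 0.0374). These 8 calls each ended when at least 1 array was left out; without array 1 the partners called were 0 higher and 3 lower (limma; 8 higher at an unadjusted p under 0.05). Of the exocyst, 0 of 9 genes passed (1 lower at an unadjusted p under 0.05), and of retromer, HOPS and ESCRT-0 genes 0 of 20 (0 in either direction).

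**Figure D4:**
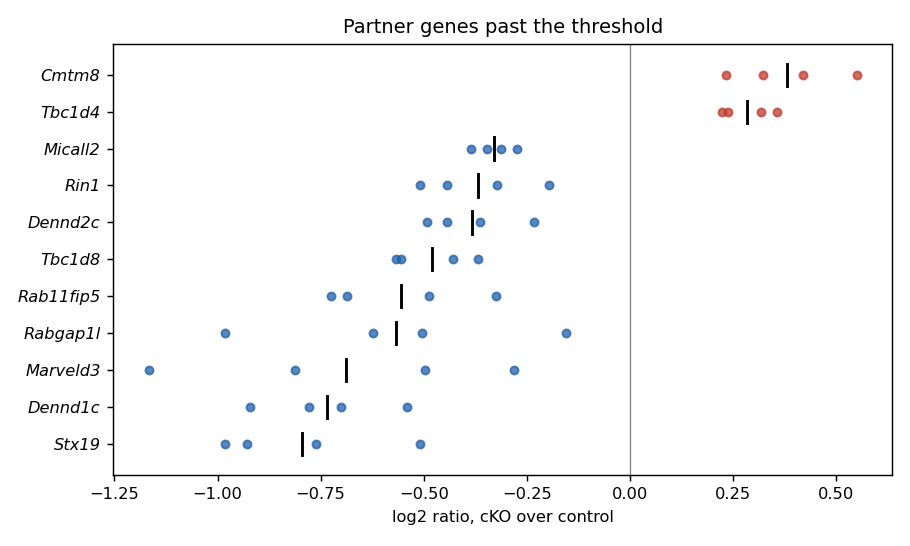
Log2 ratio of cKO over control on each of the 4 arrays (points) and the fitted ratio (black ticks) for the 11 partner genes past an adjusted p of 0.05, red for higher and blue for lower. All 4 points lie on 1 side of 0 for each gene, and those of Marveld3 and Rabgap1l spread most.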

How the data were processed

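Linear spot intensities were deposited as scanner output, made by the authors with Agilent software (Feature Extraction 10.7.3.1; submitters' processing notes and file headers); 200 ng of total RNA was amplified and labelled per the labels' protocols. A second deposited table gives log2 ratios, here found to be cKO over control, with medians of 0 and slopes of 0.998 to 1.00 on Agilent's ratios; its treatment of dim probes, 7718 to 12487 of them at 0, stays unknown. Mean signals were corrected by normexp (offset 50) and loess in limma 3.58.1 (R 4.3.3), control spots at weight 0, outlier spots left out (3.04% to 3.58%), and the 4 spots of a probe averaged. Genes needed a probe well above background on 4 arrays in 1 genotype; the brightest probe stood for the gene. Levels are loess-normalized channels after quantile normalization of the mean intensity. Ratios were fitted with the dye as a term (2 residual degrees of freedom beside a prior of 3.26) and adjusted by Benjamini-Hochberg over 18170 genes. SDs include the dye difference; p-values do not. The number of arrays limits the precision. Probe positions are in mm9; names and start sites are RefSeq (GRCm38.p6). Separate-channel fits used statmod 1.5.0 and an intra-spot correlation of 0.740. The fit was tested on simulated data.

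The genes, the role, partner and marker lists and the tests were chosen with earlier results of these data known. Genes named are those past the threshold, the brightest other gene of each role, partners past the threshold, and 27 chosen after their values were seen.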

Additional observations from a re-analysis of the deposited data

Results flagged for a closer look

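Rab10 had 1 array apart from the other 3: its ratio was -0.10 on array 1, and -0.24, -0.23 and -0.24 on arrays 2 to 4. The other Rab10 probe did not share this: its ratios were -0.33, -0.19, -0.20 and -0.26, with array 1 lowest. Of 57 sets of ratios examined this way (56 genes and the median of the 102 genes), 1 stood out, and chance alone gives about 1 in 20.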

How the results depend on the processing

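The calls of Sytl1 and Dennd1c held under 14 of 14 alternatives, and no gene past the threshold changed sign under any. Agilent's processed signals gave 1 partner higher; so did the median within arrays and the mean of all probes. The deposited value table gave 2 genes lower, 0 partners higher (12 at an unadjusted p under 0.05, limma) and 3 lower, where 253 of all genes were higher and 583 lower. With no dye term 7 genes were lower (1187 of all genes). With an array left out, 2 to 3 genes were higher and 2 to 6 lower (2 without array 1), and 0 to 1 partners higher and 3 to 8 lower, while all genes gave 268 to 383 and 570 to 810. The replicate block of the separate-channel fit gave 11 genes higher and 13 lower, and 7 and 17 partners (1239 and 1731 of all genes); no replicate block gave 0 and 2 genes, and 0 and 2 partners, against 120 and 438 of all genes (9 genes and 4 partners higher at an unadjusted p under 0.05, limma). The genes' median stayed between 0.00 and 0.04. The causes were not tested. Scaling moved the median of all genes by under 0.1. No slide block was run, since all arrays lay on 1 slide.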
